A study of Saccharomyces cerevisiae with 12 samples.

Results

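Most small nucleolar RNAs (snoRNAs) of budding yeast, Saccharomyces cerevisiae, are transcribed from genes of their own, but 8 lie inside introns of protein-coding genes. The 8 host genes are RPS22B (YLR367W), RPL7A (YGL076C), RPL7B (YPL198W), ASC1 (YMR116C), EFB1 (YAL003W), TEF4 (YKL081W), IMD4 (YML056C) and NOG2 (YNR053C). They were chosen by this property in the annotation, with earlier results of these data known. They account for 92 of 6195 listed splice forms and for 8 of 271 coding genes with an annotated intron. A splice form is here a stretch of genome skipped by reads, listed because it differs from the annotated introns.

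The reads come from 12 libraries of rRNA-depleted RNA of haploid cells, with 1 library for each of 6 genotypes at each temperature. The prp43-1 genotypes were the set1 deletion with prp43-1, the set2 deletion with prp43-1, and prp43-1 alone. The genotypes with intact PRP43 were the set1 deletion, the set2 deletion and the wild type. Each was sequenced at 37 °C and at 25 °C, which gives 6 libraries with prp43-1 against 6 with PRP43, and 6 at 37 °C against 6 at 25 °C. All derive from the laboratory strain BY4741 and carry his3Δ1, leu2Δ0, met15Δ0 and ura3Δ0, the wild type included. The labels give 25 °C growth for every culture and name 37 °C only as a temperature, so the length of the heat exposure is unknown. No condition has a second library, and whether strains are single clones is not given in the sources used here.

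An intronic snoRNA is freed from its host after splicing: the excised lariat is released from the spliceosome, opened by the debranching enzyme Dbr1 and trimmed from both ends by exonucleases down to the snoRNA. Prp43 is the DEAH-box helicase that takes apart the spliceosome, both after splicing, when it releases the lariat, and when a spliceosome stalls before completing the reaction. C/D box snoRNAs guide 2′-O-methylation and H/ACA box snoRNAs guide pseudouridylation, mainly of ribosomal RNA. Several hosts themselves make parts of the translation machinery. Set1 and Set2 are histone H3 methyltransferases.

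In prp43-1 libraries 2 splice forms of RPS22B, which encodes a protein of the small ribosomal subunit, fell, and 1 form of RPL7A, which encodes a protein of the large subunit, rose. The RPS22B form that skips only the last 69 nt of the SNR44 intron had 211 reads with prp43-1 and 828 with PRP43. A 550-nt skip upstream of the RPS22B coding region had 7 reads with prp43-1 and 232 with PRP43. A 96-nt skip from the 5′ splice site of the RPL7A intron that holds SNR39 had 73 reads with prp43-1 and 1 with PRP43. All these skips leave the snoRNA sequence in place. At 37 °C the RPS22B 69-nt form fell as well, with 224 reads at 37 °C and 815 at 25 °C, a call lost with column-total scaling, among PRP43 libraries alone and without both set2-deletion libraries with PRP43.

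The sequences of these skips are shown because they hold the splice signals on which the forms differ from the annotated introns. They are from the RefSeq R64 sequence, written 5′ to 3′ on the strand of the gene. In the skipped RPS22B stretch, chrXII:856989-857057 on the plus strand, capitals mark the first 6 bases, the branch point consensus TACTAAC and the last 3 bases.
RPS22B 69-nt skip: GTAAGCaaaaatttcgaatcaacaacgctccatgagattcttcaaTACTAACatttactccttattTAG
The annotated intron, chrXII:856575-857057, begins 414 nt further upstream, and the 2 starts are shown with 10 bases before them, the first 6 skipped bases in capitals.
RPS22B annotated intron start: caaaagcatgGTATGTtccaactatttttc
RPS22B 69-nt skip start: tttttatgaaGTAAGCaaaaatttcgaatc
GTATGT begins 205 of the 281 annotated introns and GTAAGC begins 0 of them. The 69-nt skip ends at the annotated 3′ splice site, and its branch point A lies 19 nt from the end, as in the annotated intron. TACTAAC was searched on either strand and occurs in 854 of the 6195 listed forms (13.8%), and on the gene's own strand in 232 of the 281 annotated introns (82.6%).

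The RPS22B skip of 550 nt, chrXII:855878-856427 on the plus strand, is shown by its ends, with the first 6 bases, TACTAAC and the last 3 bases in capitals.
RPS22B 550-nt skip start: GTATGTggacgaggtgtg
RPS22B 550-nt skip end: tataaTACTAACgtttcaaaacaTAG
It carries all 3 signals of a yeast intron, with the branch point A 16 nt from the end. Introns were taken here only from gaps between the coding parts of a gene. Whether an intron upstream of the coding region is already known at that place was therefore not checked.

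For RPL7A, 3 skips begin at the 5′ site of intron 2 and end before SNR39. The longest of these is shown, chrVII:365323-365432 on the minus strand. The first 6 bases and the last 3 bases of the 69-nt, 96-nt and 110-nt skips are in capitals, in that order.
RPL7A 110-nt skip: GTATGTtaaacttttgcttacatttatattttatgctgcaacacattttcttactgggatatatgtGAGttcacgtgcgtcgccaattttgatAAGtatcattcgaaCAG
None of the 3 contains TACTAAC. They end 113, 86 and 72 nt before SNR39.

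The end of RPL7A intron 1, chrVII:365507-365546 on the minus strand, carries the last bases of the annotated intron and of a 476-nt skip, both CAG in capitals.
RPL7A intron 1 end: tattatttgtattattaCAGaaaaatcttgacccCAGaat

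**Figure D1:**
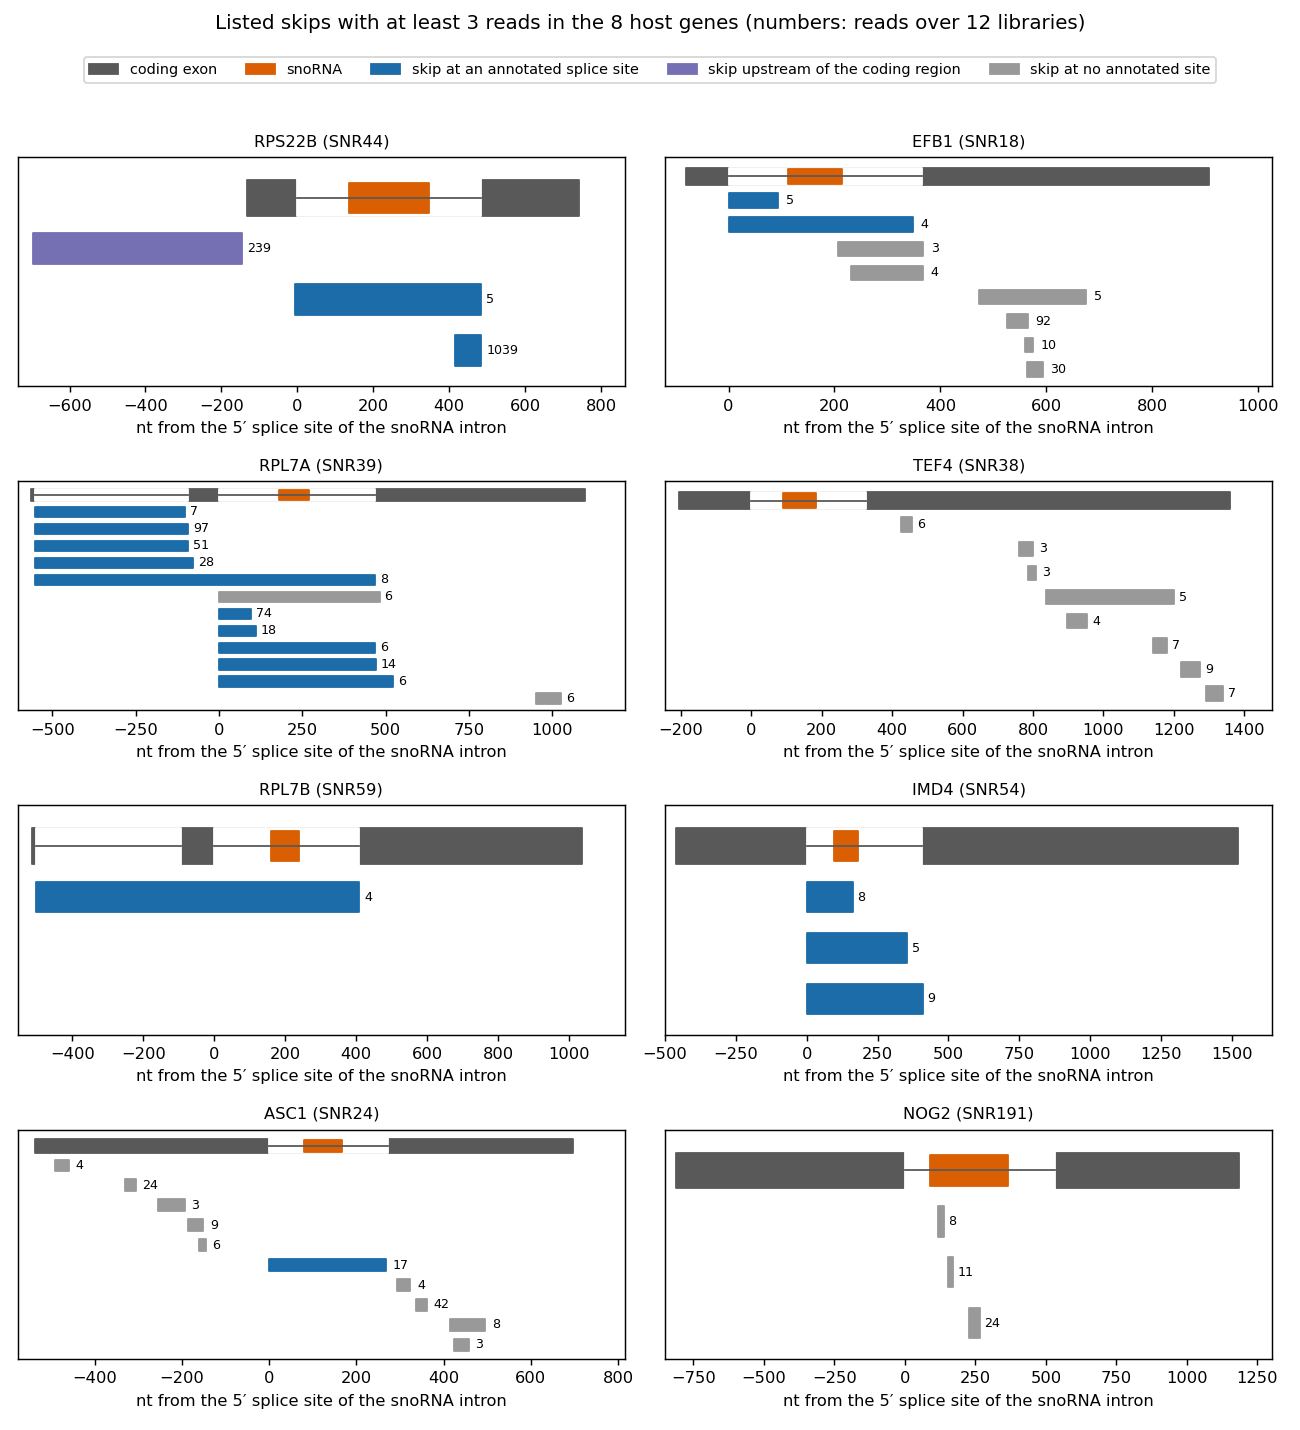
Splice forms with at least 3 reads in the 8 host genes, drawn to scale by distance in nt from the 5′ splice site of the snoRNA intron, with coding exons in dark grey, the snoRNA in orange and the reads of each form beside it. The RPS22B 69-nt form (1039 reads) and the RPL7A 96-nt form (74 reads) lie within the snoRNA intron without overlapping the snoRNA, and the RPS22B 550-nt form (239 reads) lies upstream of the coding region.

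The 12 libraries held 214055 to 402886 reads on listed forms, of which 74.5% to 87.5% were on SCR1, which makes the RNA subunit of the signal recognition particle. These totals are not sequencing depth, which is unknown. Splice forms at the altered genes were too few to check the genotypes: PRP43 had 1 form with 2 reads, SET1 had 2 forms with 2 reads and SET2 had none listed. Genes expressed only in cells of mating type α had reads in 6 libraries, although the labels give MATa for all. The 4 α-specific genes had 15 reads at 37 °C and 99 at 25 °C in the set2 deletion with prp43-1, 16 and 61 in the set1 deletion, 2 and 38 in the set2 deletion, and 0 in the other 6 libraries. Of 6 a-specific genes, 2 were listed, with 1 to 3 reads in each of those other 6 libraries and 0 in the 6 with α-specific reads. Their part in the results was not tested, but the main calls were recomputed without the 6 libraries with α-specific reads. The wild type is then the only strain with PRP43, and the set1 term takes up the set1 deletion with prp43-1. That fit therefore compares prp43-1 alone with the wild type and cannot separate prp43-1 from other differences between these strains.

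Of the 92 host forms, 82 had a read, 48 had at least 3 and 16 had at least 10, with 2038 reads in all. RPS22B held 1284 of these reads on 6 forms, and its 69-nt form alone held 51.0% of all host-gene reads. RPL7A followed with 338 reads on 25 forms, EFB1 with 155 on 11, ASC1 with 126 on 15, TEF4 with 51 on 12, NOG2 with 47 on 6, IMD4 with 27 on 10 and RPL7B with 10 on 7. Counts this uneven mean that most statements below rest on RPS22B and RPL7A.

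By position, 34 forms with 370 reads used an annotated 5′ site and another end, and 9 forms with 1050 reads used an annotated 3′ site and another start. A further 2 forms, with 12 reads, joined annotated sites across exon 2. Another 30 forms with 302 reads were gaps inside exons, of which 0 had GT and AG at their ends. The remaining forms were 16 that touched an intron without using its sites, with 65 reads, and the 550-nt form. Of the 92, 29 forms removed the whole snoRNA (99 reads), 3 cut into it (12 reads), 4 lay within it (45 reads) and 56 left it (1882 reads).

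The 45 host forms that used an annotated site were 48.9% of the forms but held 70.3% of the reads. Among the other intron-containing ribosomal protein genes, 303 of 497 forms (61.0%) used such a site, with 53.9% of the reads. Among the other intron genes, 309 of 435 forms (71.0%) did, with 35.0% of the reads. These shares are a description, since the read share of the host genes comes mostly from 1 form. Sites of introns outside coding regions were not looked up, so the RPS22B 550-nt form could not count as using one.

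All 6195 forms were fitted together with edgeR's quasi-likelihood test, with terms for the set deletion, prp43 and temperature, with Benjamini-Hochberg adjustment over the 451 forms that passed the filter on low counts. Levels are given as CPM, counts relative to the library's total on listed forms after TMM scaling. Only 5 of the 92 host forms passed: the RPS22B 69-nt and 550-nt forms, the RPL7A 96-nt and 460-nt forms, and the EFB1 39-nt gap. A form can pass the filter through the group where it is high, so counts among the 5 are no measure of the host genes. For prp43-1, 3.99% of all tested forms were called (18 of 451, with 9 higher and 9 lower) and 3 of the 5 host forms, 1 higher and 2 lower. For temperature, 7.98% of all forms were called (36 of 451) and 1 of the 5. The median log2 fold change with prp43-1 was -0.50 over the 5 host forms, of which 2 lay above 0, and -0.059 over all tested forms. For the same reason the median of the 5 is no measure of the host genes.

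RPS22B makes a protein of the small ribosomal subunit, and its intron holds SNR44, an H/ACA snoRNA of 211 nt. The 69-nt form removes only the end of that intron, beginning 69 nt past the last base of SNR44. Read counts with prp43-1 at 37 °C were 6 in the set1 deletion, 8 in the set2 deletion and 1 in prp43-1 alone, against 65, 81 and 63 in the same backgrounds with PRP43. At 25 °C they were 100, 81 and 15 with prp43-1, against 154, 327 and 138 with PRP43.

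On the CPM scale the form had 22.0, 25.3 and 4.57 with prp43-1 at 37 °C, against 205, 334 and 256 with PRP43. At 25 °C it had 246, 264 and 69.2 CPM with prp43-1, against 577, 1187 and 384 CPM with PRP43. Within each temperature every prp43-1 library lay below every PRP43 library, while over both temperatures the groups overlapped. The log2 fold change for prp43-1 was -2.65 (SE 0.40, edgeR adjusted p = 0.000849), and the form was lower in 6 of 6 matched pairs of libraries, with a mean log2 ratio of -3.10 ± 1.58 (SD, n = 6). Fitted within 37 °C the log2 fold change was -3.79 (edgeR adjusted p = 0.0129), and within 25 °C it was -1.88 (adjusted p = 0.00407). Without the 6 libraries with α-specific reads, for prp43-1 alone against the wild type, it was -3.72 (edgeR adjusted p = 2.61e-05).

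The same form fell by 2.05 on the log2 scale at 37 °C (SE 0.39, edgeR adjusted p = 0.0155), with 224 reads at 37 °C and 815 at 25 °C. Levels at 37 °C had a lowest value of 4.57, a median of 115 and a highest value of 334 CPM, against 69.2, 324 and 1187 CPM at 25 °C. The temperature groups overlapped. This call was lost when libraries were scaled by column totals alone (log2 fold change -2.17, edgeR adjusted p = 0.0718), when both set2-deletion libraries with PRP43 were left out (-2.16, adjusted p = 0.0878) and among PRP43 libraries alone (-1.29, adjusted p = 0.0786). Among prp43-1 libraries alone it was -3.52 (edgeR adjusted p = 4.90e-07). In the 3 libraries at 37 °C with prp43-1 it held 15 reads in all.

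The interaction of prp43-1 and temperature for this form was -2.16 on the log2 scale (SE 0.59, edgeR unadjusted p = 0.00284, adjusted p = 0.284). After adjustment, the change with prp43-1 was therefore not shown to differ between temperatures. Of 513 forms tested for the interaction, 0 (0%) were called by edgeR, with 54 at an unadjusted p under 0.05, and DESeq2 called 1. With the set2 deletion the form had a log2 fold change of 1.18 (edgeR unadjusted p = 0.0248, adjusted p = 0.898). With the set1 deletion it was 0.71 (edgeR unadjusted p = 0.160, adjusted p = 0.996). Neither deletion had any call among the 451 forms (0% each), with 15 forms for set1 and 17 for set2 at an unadjusted p under 0.05, and DESeq2 also called 0 for each.

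**Figure D2:**
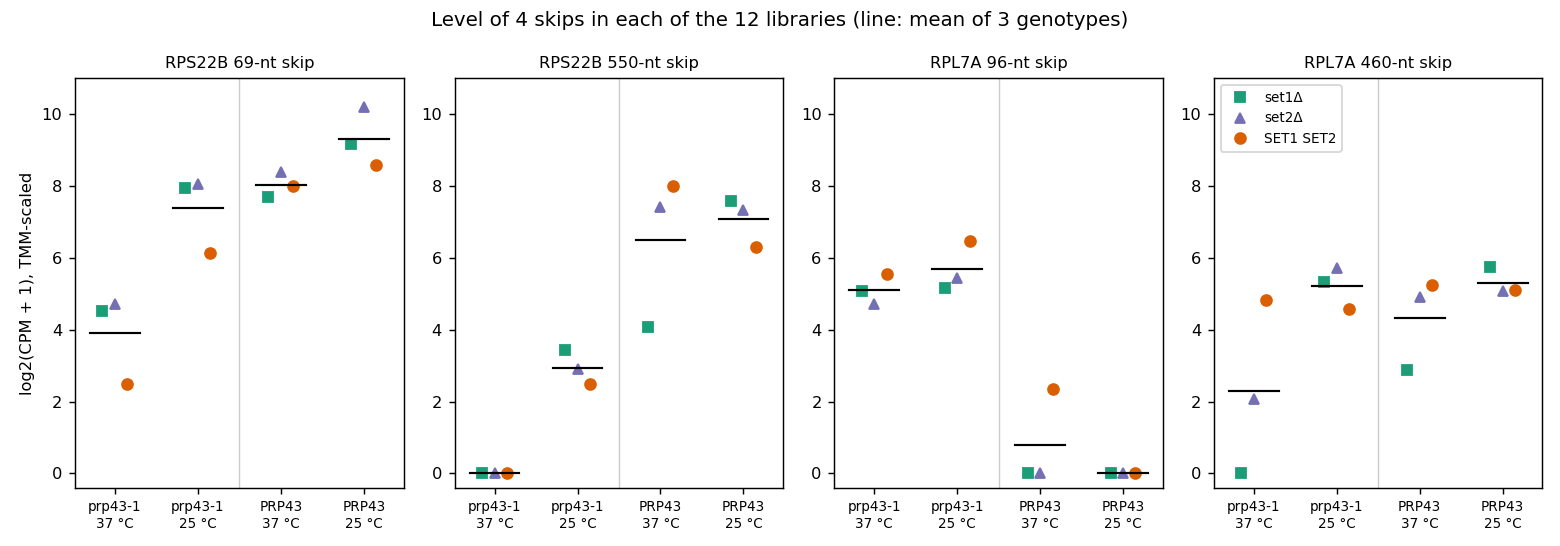
Level of 4 forms in each of the 12 libraries, as log2(CPM + 1) by prp43 status and temperature, with 1 point per genotype and a line at the mean of the 3 genotypes. The RPL7A 96-nt form had reads in all 6 prp43-1 libraries and 1 PRP43 library, and both RPS22B forms were lower with prp43-1 within each temperature.

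The 550-nt RPS22B form lies upstream of the coding region and does not touch SNR44. At 37 °C it had 0 reads in each of the 3 prp43-1 libraries, against 5 in the set1 deletion, 41 in the set2 deletion and 63 in the wild type. At 25 °C it had 4 reads in the set1 deletion with prp43-1, 2 in the set2 deletion with prp43-1 and 1 in prp43-1 alone, against 51, 44 and 28 with PRP43. The lowest, median and highest levels were 0, 2.31 and 9.85 CPM with prp43-1, against 15.8, 164 and 256 CPM with PRP43, and the groups did not overlap.

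The log2 fold change of the 550-nt form with prp43-1 was -5.05 (SE 0.75, edgeR adjusted p = 0.000849). Without the 6 libraries with α-specific reads, for prp43-1 alone against the wild type, it was -5.82 (edgeR adjusted p = 0.000186). Read counts over the 6 libraries of each kind, scaled as here and below for each count ratio by the summed effective library totals of the 2 groups, gave a ratio of 0.0296 (95% interval from 0.0118 to 0.0621, counting error only). Between temperatures its log2 fold change was -0.58 (SE 0.70, edgeR adjusted p = 0.660), and that sign turned without the set1-deletion library at 37 °C.

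Both RPS22B forms were lower with prp43-1, so the 69-nt form made up no smaller share of the gene's listed reads. It held 100%, 100% and 100% of RPS22B reads in the 3 prp43-1 libraries at 37 °C, which had 6, 8 and 1 such reads, against 92.9% in the set1 deletion, 64.8% in the set2 deletion and 48.8% in the wild type. At 25 °C it held 96.2% in the set1 deletion with prp43-1, 97.6% in the set2 deletion with prp43-1 and 93.8% in prp43-1 alone, against 75.1%, 88.1% and 83.1% with PRP43. The other 4 RPS22B forms had 6 reads together.

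Reads across annotated junctions are not in the table. A lower transcript level of RPS22B and a lower use of these sites therefore cannot be told apart, nor can fewer expressing cells and less RNA per cell.

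RPL7A makes a protein of the large ribosomal subunit and has 2 introns, of which the second, chrVII:364965-365432, holds the C/D snoRNA SNR39. The 96-nt form begins at the 5′ site of that intron and ends 86 nt before SNR39. With prp43-1 it had 9, 8 and 10 reads at 37 °C and 14, 13 and 19 reads at 25 °C in the set1 deletion, the set2 deletion and prp43-1 alone, against 1 read in the wild type at 37 °C and 0 in the other 5 PRP43 libraries. Levels were 25.3, 38.4 and 87.6 CPM (lowest, median and highest) with prp43-1, against 0, 0 and 4.07 CPM with PRP43, with no overlap.

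The fitted log2 fold change was 5.49 (SE 0.71, edgeR adjusted p = 0.000484). The ratio of summed counts, scaled by library totals, was 71.7, with a 95% interval from 12.5 to 2872 that covers counting error only, so the size of the difference is poorly bounded at this depth. Without the 6 libraries with α-specific reads, for prp43-1 alone against the wild type, the log2 fold change was 4.95 (edgeR adjusted p = 0.0379). Temperature gave a log2 fold change of -0.40 (adjusted p = 0.698). Libraries of the set1 and set2 deletions with prp43-1 had 33.1 and 25.3 CPM at 37 °C and 34.5 and 42.4 CPM at 25 °C, against 45.7 and 87.6 CPM in prp43-1 alone.

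Both neighbours from the same 5′ site had reads only in prp43-1 libraries. The 110-nt form had 18 reads, all in prp43-1 libraries and in each of the 6, which is at least 5.90-fold higher than in PRP43 libraries against a floor of 3 counts over the group. It did not pass the filter on low counts. Without the filter edgeR gave an adjusted p of 0.0322 over 5316 forms. The 69-nt form had 2 reads with prp43-1 and 0 with PRP43, too few to compare. The 3 forms that end before SNR39 together had 93 reads with prp43-1 and 1 with PRP43.

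Forms from the same 5′ site that run past SNR39 did not follow this split. The 4 forms that remove SNR39 had 14 reads with prp43-1 and 13 with PRP43. One of them, the 471-nt form, had 14 reads, 9 with prp43-1 and 5 with PRP43.

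Intron 1 of RPL7A holds no snoRNA and lies in the same transcript. Its 12 forms from the annotated 5′ site had 105 reads with prp43-1 and 89 with PRP43, a scaled ratio of 1.16 (95% interval from 0.866 to 1.56, counting error only). Of these reads, 150 lay on the 460-nt, 461-nt and 462-nt forms, which end 1 to 3 nt past the annotated 3′ site, with 75 in each group. None of these 3 forms ends in AG, unlike the 96-nt form, so they are not forms of the same kind. The 460-nt form had 44 reads with prp43-1 and 53 with PRP43 (log2 fold change -0.50, SE 0.60, edgeR adjusted p = 0.721). At 37 °C it had 25 reads against 72 at 25 °C (log2 fold change -1.43, unadjusted p = 0.0393, edgeR adjusted p = 0.175).

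The other intron 1 forms were fewer. The 461-nt form had 29 reads with prp43-1 and 22 with PRP43. The 476-nt form, which ends at a CAG 17 nt into exon 2, had 18 reads with prp43-1 and 10 with PRP43. These read ratios and that of the SNR39 intron were not tested against each other.

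**Figure D3:**
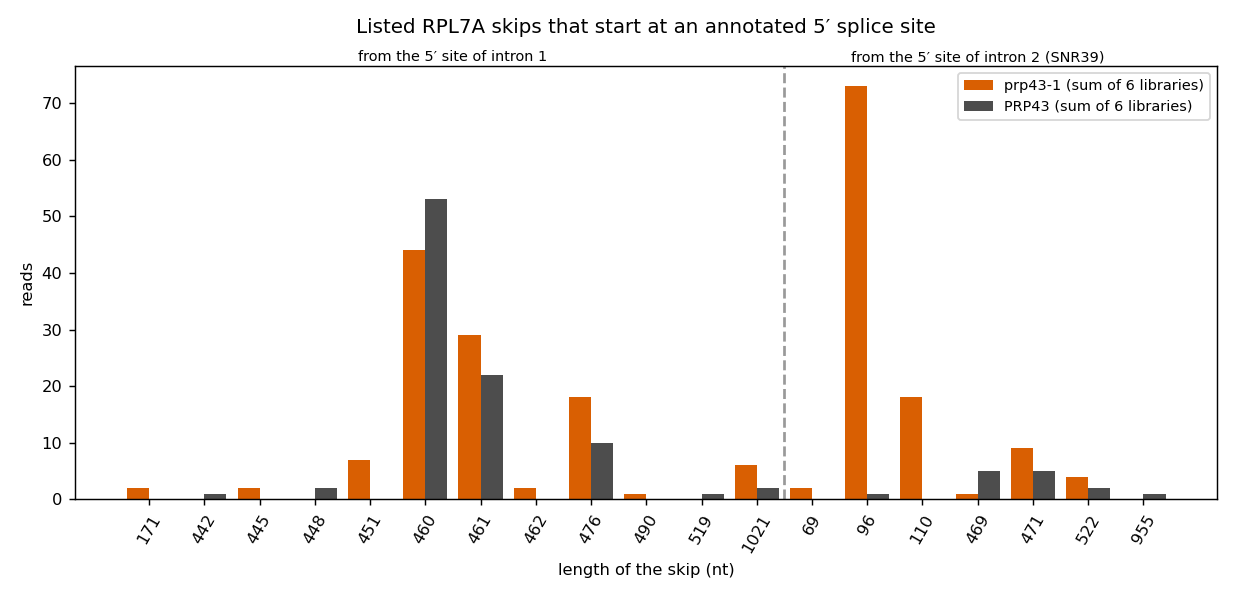
Reads of each RPL7A form that begins at an annotated 5′ site, by length of the skip in nt, summed over the 6 prp43-1 and the 6 PRP43 libraries. The 69-nt, 96-nt and 110-nt forms, which end before SNR39, have 93 reads with prp43-1 and 1 with PRP43, while the forms from intron 1 have 105 and 89 reads apart from the 1021-nt exon skip.

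RPL7A and RPL7B are close paralogs with the same arrangement of 2 introns and a C/D snoRNA, SNR59, in the second intron of RPL7B. The 25 bases on either side of each RPL7A skip shown above occur once in the genome. RPL7B had only 10 reads on 7 forms. Its largest form, of 910 nt with 4 reads, skips exon 2 from annotated site to annotated site, and RPL7A had the matching skip of 1021 nt with 8 reads. Over both genes this exon 2 skip had 7 reads with prp43-1 and 5 with PRP43, too few to compare at this depth.

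ASC1 encodes the yeast counterpart of RACK1, a scaffold protein on the small ribosomal subunit, and its intron holds SNR24. Of its 126 reads, 106 were on 11 gaps inside exons, with 28 reads in prp43-1 libraries and 78 in PRP43 libraries. The largest was a 24-nt gap in exon 2 with 6 reads with prp43-1 and 36 with PRP43, a scaled count ratio of 0.164 (95% interval from 0.0564 to 0.392, counting error only). Its levels were 0, 1.63 and 13.8 CPM with prp43-1 against 6.32, 17.4 and 41.7 CPM with PRP43 (lowest, median and highest), which overlap, and it was below the filter for the test. Without the filter it was not called (log2 fold change -2.50, edgeR adjusted p = 0.122). The 269-nt form removes SNR24, ends 4 nt before the annotated 3′ site, and had 8 reads with prp43-1 and 9 with PRP43.

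EFB1 and TEF4 encode subunits of the elongation factor eEF1B, the nucleotide exchange factor of eEF1A. EFB1, host of SNR18, had 137 of its 155 reads on 4 gaps inside exons. The largest, a 39-nt gap, had 53 reads with prp43-1 and 39 with PRP43 (log2 fold change 0.18, SE 0.51, edgeR adjusted p = 0.906), and 32 at 37 °C against 60 at 25 °C (log2 fold change -0.62, adjusted p = 0.479). A 94-nt EFB1 form from the annotated 5′ site ends 20 nt before SNR18 and had 5 reads with prp43-1 and 0 with PRP43. Without the filter it was not called (log2 fold change 2.85, edgeR adjusted p = 0.836). From the same site, 2 forms that remove SNR18 had reads. The 319-nt form had 2 with prp43-1 and 0 with PRP43, and the 348-nt form had 1 and 3. TEF4, host of SNR38, had 12 forms, all gaps inside exons, with 51 reads, 23 with prp43-1 and 28 with PRP43. No TEF4 form touched its intron or SNR38.

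IMD4 encodes an IMP dehydrogenase of guanine nucleotide synthesis and hosts SNR54. Its largest form, a 411-nt skip ending 3 nt past the annotated 3′ site, had 9 reads. A 164-nt form from the annotated 5′ site that cuts into SNR54 had 8 reads, all in PRP43 libraries. Without the filter it was not called for prp43-1 (log2 fold change -3.54, edgeR adjusted p = 0.836).

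NOG2 encodes a GTPase needed for assembly of the large ribosomal subunit, and its intron holds SNR191, an H/ACA snoRNA of 274 nt. Of the 47 reads listed under NOG2, 45 were on 4 short gaps within SNR191 itself. Whether these reads come from the snoRNA or from NOG2 RNA that holds the intron cannot be told from the counts. The 41-nt gap, chrXIV:722036-722076, had 24 reads at 37 °C and 0 at 25 °C, of which 18 were in the single library of prp43-1 alone at 37 °C. It was below the filter, and without the filter edgeR gave an adjusted p of 0.0215 for temperature, a value that rests largely on that library.

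Summed over each host's forms, 117 genes were tested, 4 of them snoRNA hosts. For prp43-1, 13.7% of genes were called (16 of 117), and for temperature 5.13% (6 of 117). The RPS22B sum fell by 2.93 with prp43-1 (log2 scale, SE 0.41, edgeR adjusted p = 3.61e-05) and by 1.75 at 37 °C (SE 0.40, adjusted p = 0.00632), and 80.9% of it is the 69-nt form. The temperature call of this sum was lost with column totals and among PRP43 libraries alone, with adjusted p up to 0.0647. The RPL7A sum rose by 1.09 (SE 0.34, adjusted p = 0.0358), a call lost in 21 of 26 alternative settings, with adjusted p from 0.0124 to 0.410. ASC1 had -1.01 (adjusted p = 0.304) and EFB1 had 0.42 (adjusted p = 0.585). For each set deletion 0% of genes were called, with 6 genes for set1 and 9 for set2 at an unadjusted p under 0.05, and DESeq2 also called 0 for each.

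**Figure D4:**
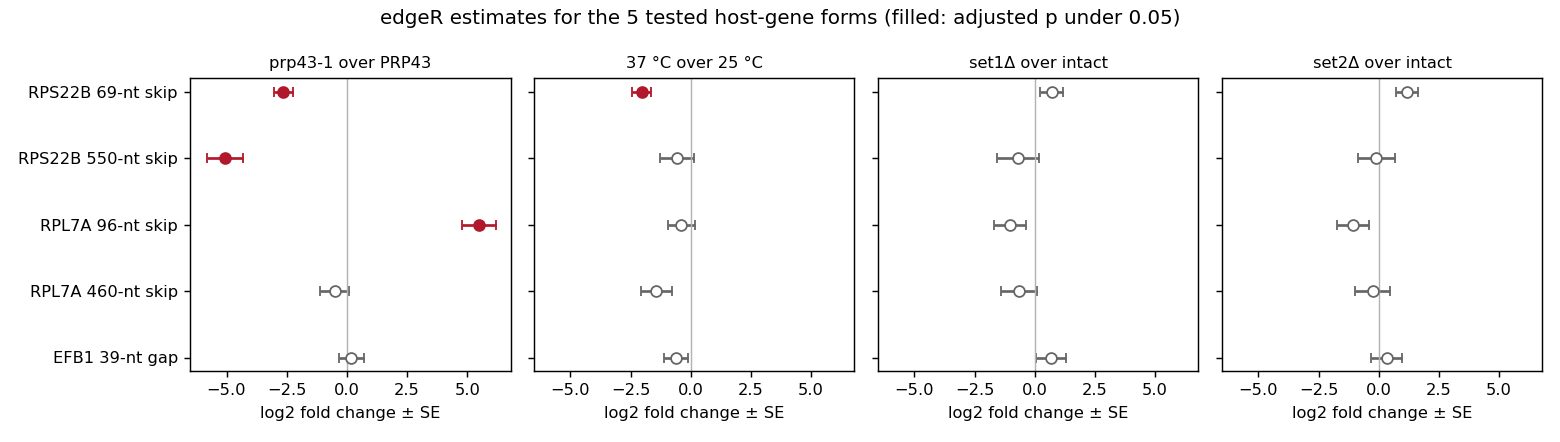
Log2 fold changes of the 5 tested host forms from edgeR, with bars of 1 standard error, for prp43-1 over PRP43, 37 °C over 25 °C and each set deletion over intact, filled where the adjusted p was under 0.05. The prp43-1 values of the RPL7A 96-nt, RPS22B 69-nt and RPS22B 550-nt forms, at 5.49, -2.65 and -5.05, lie farthest from 0 relative to their errors.

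Among the 30 gaps inside exons of the 8 hosts, the reads were 127 with prp43-1 and 175 with PRP43, and lengths ran from 12 to 364 nt with a median of 37 nt. The deposited p-value was 1 for all 30. The 29 forms that remove a snoRNA had 48 reads with prp43-1 and 51 with PRP43, and 61 at 37 °C against 38 at 25 °C. Without RPS22B, the hosts' forms had 413 reads with prp43-1 and 341 with PRP43. Of these, 93 and 1 were on the 3 RPL7A forms that end before SNR39, so the sums show no general rise of the other hosts.

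**Figure D5:**
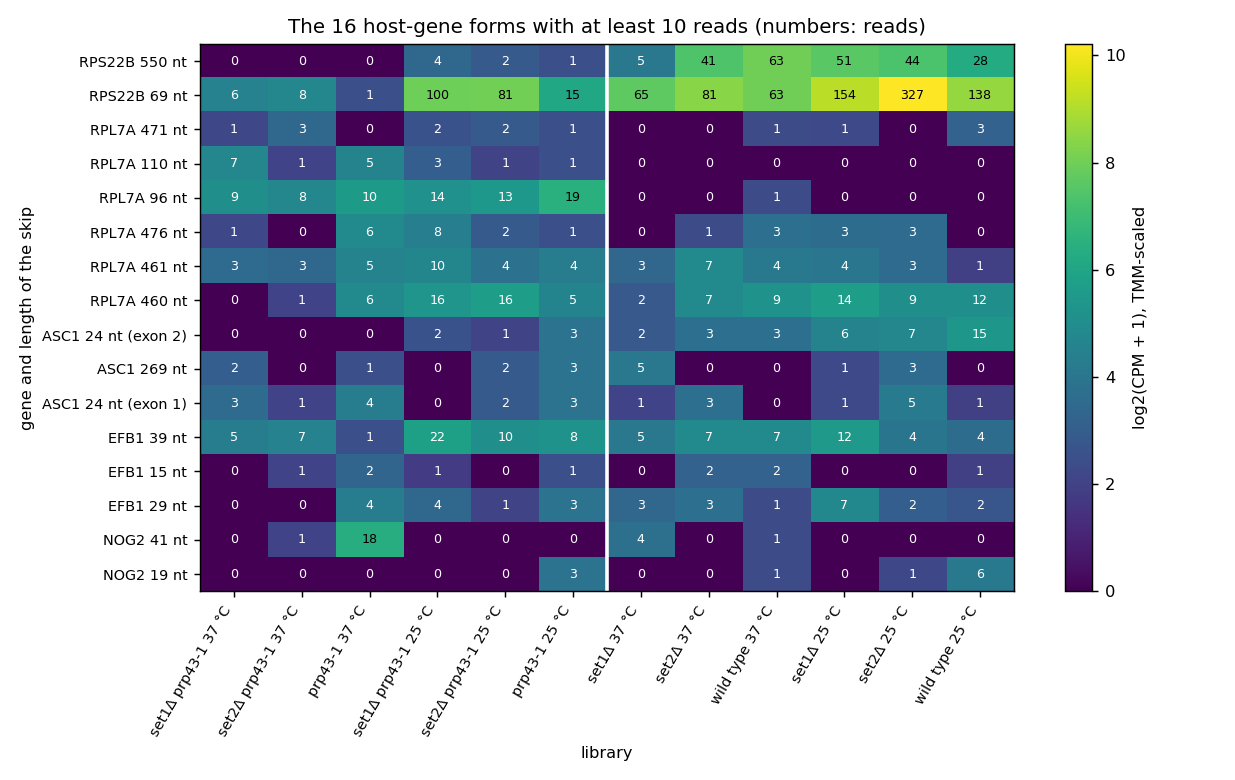
Reads of the 16 host forms with at least 10 reads, by library, with colour for log2(CPM + 1) and prp43-1 libraries left of PRP43 libraries. The RPL7A 96-nt and 110-nt forms have reads in every prp43-1 library, and 18 of the 24 reads of the NOG2 41-nt gap are in 1 library.

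Genes that act on intronic snoRNAs had few listed forms. Of 8 genes of lariat release, debranching and end trimming, 5 were listed, with 8 forms and 7 reads. Of 4 core proteins of C/D particles, 3 were listed with 72 reads, of which 66 were on 8 forms of NOP1, the methyltransferase fibrillarin. The 4 H/ACA core proteins had 1 form with 0 reads, and the 8 intronic snoRNA genes were not listed as hosts. The paralogs RPS22A, IMD2 and IMD3 had 3 forms with 6 reads. None of these forms passed the filter for the test.

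Over the 12 libraries, the forms outside the 8 hosts most like the RPL7A 96-nt form were skips of 339 nt and 52 nt in SCR1, each with a Pearson r of 0.89 on log2 CPM among 446 tested forms. For the RPS22B 550-nt form they were a 399-nt skip in PGK1 (r = 0.91) and a 27-nt skip in ENO1 (r = 0.89). For the RPS22B 69-nt form they were a 327-nt skip in ECM33 and a 42-nt skip in ENO2, each with r = 0.93. These correlations describe 12 libraries that share strains, temperatures and scaling.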

How the data were processed

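The deposited table gives, per the file headers, a count of reads for each of 12 libraries on each splice form outside the annotation, with its position, host gene and a p-value of the authors whose meaning is stated nowhere. Total RNA was depleted of rRNA, per the labels' protocols. The tools CASAVA and STAR 2.4.0 and the build sacCer3 are listed in the submitters' processing notes, without settings. RefSeq R64 fitted the deposited coordinates: 729 of the 1112 forms whose p-value is below 1 start with GT and end with AG. No step for duplicate reads is stated, so intervals and floors cover counting error only.

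Forms were placed against the snoRNAs of R64 and its introns between coding parts, so introns outside coding regions were left out. Counts were tested with edgeR 4.0.16 in R 4.3.3 (quasi-likelihood, filterByExpr, TMM scaling, default prior count), on all 6195 forms and on sums per host. A prior count of 2 was used only for the log2 CPM of the correlations. With 1 library per condition the spread is the residual of the additive model over 12 libraries, which may be technical, and the libraries of 1 strain at both temperatures are treated as independent samples. Standard errors were derived from the F statistic and are approximate. Count ratios have exact 95% intervals. On simulated counts of 451 forms, the prp43-1 test called 64% of 2-fold and 96% of 4-fold changes, and the temperature test 61% and 93%. The simulated forms shared 1 common dispersion, with independent libraries and no set or strain effects, so these rates can be too high for the data. By rule, host forms with at least 10 reads at an annotated site, or called at the threshold of 0.05, were described one by one. Other single forms, gaps inside exons and NOP1 were chosen after their values were seen. The alternatives were DESeq2 1.42.0, other scalings and filters, subsets and a genotype block. Host genes and gene lists were chosen with earlier results of these data known. All 12 count columns matched a library.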

Additional observations from a re-analysis of the deposited data

Results flagged for a closer look

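In 31 sets of 6 libraries (forms with at least 10 reads, split by prp43, leaving out 1 set with 0 reads), the highest or lowest library was checked against the others by Dixon's ratio of gap to range at its 95% limit. Chance flags about 1 set in 20 where values vary continuously. That rate does not hold for these sparse counts, since a set with reads in 1 library only is always flagged, so the 7 flags are given as values. The RPL7A 96-nt form stood highest in prp43-1 alone at 25 °C, at 87.6 CPM, where the next prp43-1 library had 45.7 CPM. Among PRP43 libraries the same form stood out in the wild type at 37 °C, at 4.07 CPM from 1 read, with 0 in the others. The ASC1 24-nt gap in exon 2 stood out in prp43-1 alone at 25 °C, at 13.8 CPM from 3 reads.

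The NOG2 gaps within SNR191 gave 4 flags. The 41-nt gap reached 82.3 CPM (18 reads) in prp43-1 alone at 37 °C, against a next value of 3.17 CPM, and 12.6 CPM (4 reads) in the set1 deletion at 37 °C among PRP43 libraries. The 19-nt gap reached 13.8 CPM (3 reads) in prp43-1 alone at 25 °C and 16.7 CPM (6 reads) in the wild type at 25 °C. Apart from the 41-nt gap in prp43-1 alone at 37 °C and the RPL7A value of 87.6 CPM, from 19 reads, these values rest on 6 reads or fewer.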

How the results depend on the processing

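The calls of the RPS22B 69-nt, RPS22B 550-nt and RPL7A 96-nt forms for prp43-1 kept their direction and stayed past the threshold in every alternative fit that gave them a value, with edgeR or DESeq2 adjusted p of at most 0.0379. Log2 fold changes ran from -3.79 to -1.88 for the 69-nt form, from -8.13 to -4.28 for the 550-nt form and from 4.95 to 7.18 for the RPL7A form. The values -8.13 (37 °C only) and 7.18 (25 °C only) are against 0 reads and depend on the prior count. Fitted at 37 °C only, the RPL7A form did not pass the filter. With the genotype as a block, temperature kept its call for the RPS22B 69-nt form. Without the 6 libraries with α-gene reads, an alternative chosen after seeing the data, all forms had 5 calls for prp43-1 and 2 for temperature, and hosts 7 for prp43-1. Counts of calls over all forms moved too. For prp43-1 they were 36 without the low-count filter, 38 with DESeq2 and 8 at 37 °C only, and 7 to 38 with libraries or genotypes left out. For temperature they were 3 with column totals, 75 without SCR1, 14 without the filter, 56 with DESeq2, 10 in PRP43 libraries only, and 2 to 60 with libraries left out. The interaction, set1 and set2 gave 0 to 1, 0 to 1 and 0 to 2 with libraries left out, and 1, 1 and 3 without the filter, with 1 for the interaction by DESeq2. Host calls for prp43-1 were 9 with size factors of DESeq2, 4 with column totals and 8 at 25 °C only, and 2 to 20 with libraries left out. For set1 they were 1 with column totals or without the filter, and 0 to 3 with libraries left out. For set2 they were 1 with column totals, without SCR1 or without the filter, and 0 to 2 with libraries left out. For temperature they were 2 with column totals, and 6 to 11 with libraries left out.

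Among snoRNA hosts, forms called for temperature were 0 with column totals and in PRP43 libraries only, 2 without the filter, and 0 to 1 with libraries left out. Host sums called for prp43-1 were 1 with column totals, without the filter, at either temperature alone and without the α-gene libraries, and 1 to 2 with libraries left out. For set2 they were 0 to 1 with libraries left out, and for temperature 0 with column totals and in PRP43 libraries only. Forms described were 16 with at least 10 reads, 48 with at least 3 and 92 in all. The mean log2 ratio of the RPS22B 69-nt form over 6 pairs was 0.41 as a share of RPS22B reads, since the 550-nt form fell more. The RPS22B 550-nt temperature value was 0.32 without the set1 deletion at 37 °C, 0.23 without both set1-deletion libraries with PRP43, between -1.58 and 0.32 over all fits with libraries left out, and 0.46 without the α-gene libraries. The EFB1 39-nt value for prp43-1 was between -0.079 and 0.50 with libraries left out, at -0.0054 without the wild type at 25 °C and -0.079 without the set2 deletion at 25 °C, and -0.15 without the α-gene libraries. The cause of these changes was not tested. Column totals shifted the median of all forms for temperature to -0.17 and of host sums to -0.34 for prp43-1 and -0.38 for temperature.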
